A study of Mus musculus with 17 samples.

Results

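Mtor, Rptor, Rheb, Tsc1, Tsc2, Depdc5, Nprl2 and Nprl3 are genes of the mTOR growth pathway that have been linked to epilepsy in people or animals, and they were taken by name. All 8 matched an Ensembl gene in the deposited counts, and all 8 passed the filter on low counts, together with 17615 of the 55450 genes listed. RNA was sequenced from the hippocampus of adult C57BL/6J mice in 17 libraries. The 5 control sgLacZ libraries came from sham control mice, and the 6 epileptic sgLacZ and 6 epileptic sgKcna1 libraries came from mice made epileptic by kainic acid, an excitotoxic glutamate receptor agonist, injected into the amygdala. All groups, the controls included, had received viral vectors carrying an inducible dCas9 activator (dCas9A, a cutting-dead Cas9 fused to a transcriptional activator) and doxycycline. sgKcna1 guides the activator to the promoter of Kcna1, the gene for a potassium channel subunit that damps neuronal firing, and sgLacZ has no target in the mouse genome. The Camk2a promoter biased the activator towards excitatory neurons around the injection site, while the RNA came from bulk tissue with all its other cells, so that fewer cells of a type and less RNA per cell cannot be told apart. The labels do not say whether replicates were separate mice, so p-values measure the spread between these libraries. Sham mice given sgKcna1 were not analysed here.

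The kinase mTOR works in neurons as part of mTORC1, a complex that promotes protein synthesis and cell growth when nutrients and growth factors are plentiful, and Raptor, the product of Rptor, is the scaffold that brings substrates to it. Rheb, a small GTPase on the lysosome, switches mTORC1 on in its GTP-bound form, and the TSC complex, built around the products of Tsc1 and Tsc2, holds Rheb in its inactive form. GATOR1, made of the products of Depdc5, Nprl2 and Nprl3, keeps mTORC1 off the lysosome when amino acids are scarce, and mutations in the genes of either brake can cause epilepsy with malformed cortex in people.

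The letters just before the start of a gene are where many general transcription factors bind, and those of 3 of the genes are shown because they hold the contrasts of the results that follow: Mtor and Depdc5 were higher in epileptic sgLacZ libraries than in controls, and Rheb was lower. Each line gives the 250 bases before the 1 transcript start per gene that the RefSeq table uses, on build GRCm38.p6 and 5′ to 3′ on the strand of the gene. That start is not always the outer end of the gene: 75 bases of the Depdc5 window, with 2 of its GC boxes, lie within the annotated gene, as do 240 bases of the window of Tsc1, 49 of that of Tsc2 and 32 of that of Nprl2. Capitals mark matches, on either strand, to the GC box GGGCGG, to the ETS site CCGGAAG, to the E-box CACGTG or to the TATA box TATAAA.
Mtor: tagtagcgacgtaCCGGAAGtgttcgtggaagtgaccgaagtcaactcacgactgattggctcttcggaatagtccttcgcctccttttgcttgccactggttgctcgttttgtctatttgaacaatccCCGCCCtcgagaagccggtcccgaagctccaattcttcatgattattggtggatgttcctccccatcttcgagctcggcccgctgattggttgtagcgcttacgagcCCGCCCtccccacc
Depdc5: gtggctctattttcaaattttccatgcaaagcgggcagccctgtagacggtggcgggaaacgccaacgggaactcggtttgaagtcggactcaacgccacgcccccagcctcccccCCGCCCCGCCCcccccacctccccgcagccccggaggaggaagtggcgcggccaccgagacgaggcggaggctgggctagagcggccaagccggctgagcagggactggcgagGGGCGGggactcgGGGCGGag
Rheb: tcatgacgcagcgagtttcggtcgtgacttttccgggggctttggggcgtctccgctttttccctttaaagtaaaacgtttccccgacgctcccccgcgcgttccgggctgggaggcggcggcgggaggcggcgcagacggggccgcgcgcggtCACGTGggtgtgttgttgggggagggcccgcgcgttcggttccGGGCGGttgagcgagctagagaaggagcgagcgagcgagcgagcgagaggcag
The Mtor window lay at chr4:148448332-148448581 on the plus strand, the Depdc5 window at chr5:32863471-32863720 on the plus strand and the Rheb window at chr5:24842362-24842611 on the minus strand. Mtor held 2 GC boxes and 1 ETS site, and Depdc5 held 4 GC boxes, of which a pair overlap by their end bases. Rheb held 1 GC box and the CACGTG E-box. Over 32851 mouse promoter windows of this length, 32.7% held a GC box, 6.91% an ETS site, 6.02% the E-box and 12.4% a TATA box. Tsc2 and Nprl2 held 1 ETS site each, Nprl3 held 1 GC box and 1 TATA box, and the windows of Rptor and Tsc1 held no match to these 4 motifs. None of the 8 windows held the cyclic AMP response element TGACGTCA, present in 1.55% of promoters,. No motif of these was held by all of the genes that were higher.

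Expression is given as CPM, the number of reads of a gene per 1000000 reads in genes after TMM scaling, which corrects library totals for differences in composition. Libraries held 11839240 to 28311328 reads in genes, and the 8 genes had 167 to 5568 reads per library, where 3 reads, the limit that a count of 0 allows, corresponded to 0.106 to 0.253 CPM. Unmapped reads made up 11.0% of the reads of epileptic sgLacZ replicate 4, the lowest value, and 41.5% of those of epileptic sgKcna1 replicate 12, the highest. Neuronal markers were abundant in every library, with a summed level of 5 markers of 6353 to 8290 CPM. Kcna1, the targeted gene, was at 35.1 ± 6.71 CPM (SD, n = 5) in controls, 30.1 ± 14.5 (n = 6) in epileptic sgLacZ and 38.2 ± 46.5 (n = 6) in epileptic sgKcna1 libraries. Replicate 12 alone stood above all epileptic sgLacZ libraries, at 133 CPM, and the other sgKcna1 libraries lay at 13.9 to 29.5 CPM. The log2 fold change of Kcna1 between the 2 epileptic groups was 0.32 (SE 0.47, adjusted p = 0.706), so the libraries below are those labelled sgKcna1. By quantitative PCR the authors found more Kcna1 in the injected than in the contralateral hippocampus of epileptic mice given this guide. They also state that RNA sequencing showed no clear rise.

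Per kilobase of exon, on the CPM scale, Rheb was the most abundant of the 8 genes and Nprl2 the next in all groups. In controls Rheb was at 41.1 ± 2.74 CPM per kilobase and Nprl2 at 29.0 ± 1.77 (SD, n = 5), followed by Tsc2 at 6.70 ± 1.25 and Mtor at 4.01 ± 0.61. Rptor was at 2.45 ± 0.17, Nprl3 at 2.21 ± 0.26, Tsc1 at 1.84 ± 0.40 and Depdc5 at 1.81 ± 0.18 CPM per kilobase. The ranges of Tsc2 and Mtor overlapped, and so did those of neighbours among Rptor, Nprl3, Tsc1 and Depdc5, whereas Rheb, Nprl2 and the next gene down were separate, and so were Mtor and Rptor. In epileptic sgLacZ libraries the first 5 places were held by the same genes in the same order, at 31.5 ± 6.47 for Rheb, 26.3 ± 3.91 for Nprl2, 12.2 ± 4.52 for Tsc2, 6.91 ± 2.54 for Mtor and 4.38 ± 1.55 for Rptor (SD, n = 6). There the ranges of Rheb and Nprl2 overlapped, at 22.1 to 40.1 and 21.4 to 31.9 CPM per kilobase. Counts that add both strands place Nprl3, which overlaps Mpg, at 4.51 ± 0.30 CPM per kilobase in controls, above Rptor and with a range overlapping that of Mtor, and at 4.75 ± 0.22 in epileptic sgLacZ libraries, so its place in the order is uncertain. On those counts Tsc2, which overlaps Pkd1, was at 10.8 ± 1.34 in controls, again behind Nprl2. Exon lengths came from an annotation of another mouse build and served only for these levels and for the comparison by length.

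The first comparison, of epileptic sgLacZ with control sgLacZ libraries, asks how the epileptic hippocampus differed from the sham hippocampus with the same inactive vector. The kinase, its scaffold, both TSC genes and Depdc5 were higher in epileptic libraries, by 1.59-fold to 1.82-fold, and Rheb was lower. The 1.82-fold difference, that of Tsc2, was smaller with the counts of both strands added, as given below. In all, 6 of the 8 genes passed an adjusted p of 0.05 in edgeR's quasi-likelihood test, 5 higher and 1 lower, while 11.0% of all tested genes passed it (7.26% higher and 3.76% lower). The median log2 fold change was 0.67 over the 8 genes and 0.020 over all tested genes.

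**Figure D1:**
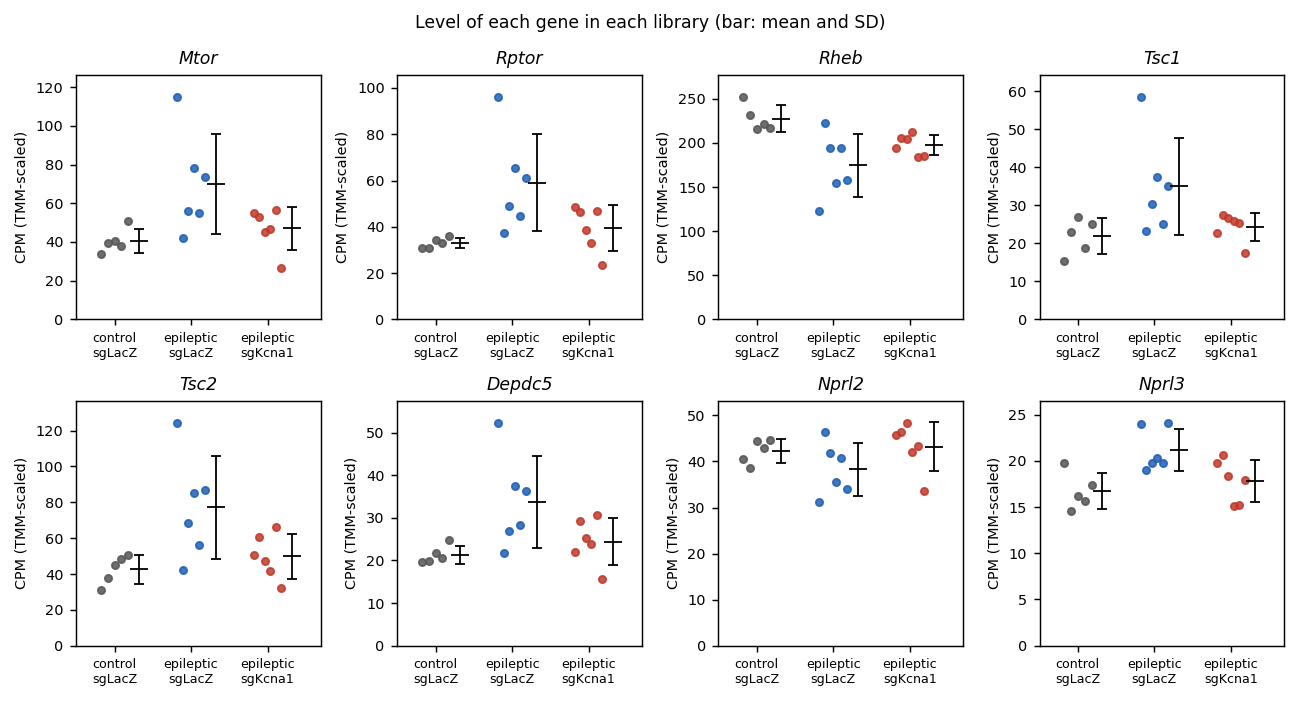
Level of each of the 8 genes in every library, in TMM-scaled CPM on a linear axis starting at 0, for the 5 control sgLacZ, 6 epileptic sgLacZ and 6 epileptic sgKcna1 libraries. Points are libraries, and the bar beside them is the mean with its SD; in Rptor all epileptic sgLacZ points lie above all control points, and the highest point of Mtor, Rptor, Tsc1, Tsc2 and Depdc5 is 1 epileptic sgLacZ library, replicate 4.

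Mtor, the catalytic subunit of both mTOR complexes, was at 34.0, 39.4, 40.5, 38.0 and 50.7 CPM in control replicates 13, 14, 15, 16 and 23. It ran from 42.0 to 115 CPM in the 6 epileptic sgLacZ libraries with a median of 64.7, and from 26.4 to 56.7 in the 6 sgKcna1 libraries with a median of 49.6. Of the epileptic sgLacZ libraries, 5 stood above every control and replicate 5 lay inside the control range. The log2 fold change of epileptic sgLacZ over control was 0.79 (SE 0.22, adjusted p = 0.0391). Rptor was at 30.7, 30.9, 34.3, 33.2 and 35.9 CPM in controls, in the same replicate order, and from 37.4 to 96.2 CPM in epileptic sgLacZ libraries with a median of 55.1. All 6 epileptic libraries exceeded all 5 controls, which held higher for 2.00% and lower for 2.40% of tested genes. The log2 fold change of Rptor was 0.84 (SE 0.21, adjusted p = 0.0333). In sgKcna1 libraries Rptor ran from 23.4 to 48.6 CPM with a median of 42.5.

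Rheb, the activator, was the 1 gene of the 8 that was called lower. Its controls were at 252, 232, 215, 222 and 217 CPM, and the epileptic sgLacZ libraries ran from 122 to 222 with a median of 176. Replicate 5 reached the control range and the other 5 lay below every control. Rheb fell by 0.38 on the log2 scale (SE 0.12, adjusted p = 0.0464), a level 1.31-fold higher in controls. With library totals in place of TMM scaling the log2 fold change was -0.32 and no longer passed (adjusted p = 0.0655). In sgKcna1 libraries Rheb ran from 184 to 213 CPM with a median of 199, and all 6 lay below all 5 controls. That held lower for 0.573% of tested genes, and the log2 fold change of -0.20 (SE 0.12) did not pass the test (adjusted p = 0.766).

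Of the TSC brake, Tsc1, whose product stabilises the complex, was at 15.4, 23.1, 26.9, 18.7 and 25.0 CPM in controls and from 23.3 to 58.5 in epileptic sgLacZ libraries with a median of 32.6. The groups overlapped, with 4 of 6 epileptic libraries above every control, and the log2 fold change was 0.68 (SE 0.21, adjusted p = 0.0454). Tsc2, whose product is the GTPase-activating subunit acting on Rheb, was at 31.3, 37.7, 44.8, 48.5 and 50.4 CPM in controls and from 42.3 to 124 in epileptic sgLacZ libraries with a median of 76.9. Here 5 of 6 epileptic libraries lay above every control, and the log2 fold change was 0.86 (SE 0.23, adjusted p = 0.0355). In sgKcna1 libraries Tsc1 ran from 17.4 to 27.6 CPM with a median of 25.6, and Tsc2 from 32.3 to 66.1 with a median of 48.9. Tsc2 shares part of its locus with Pkd1 on the other strand, and counting did not use strand. Adding the counts of the forward and reverse strands gave 36.6% more reads for Tsc2 than the unstranded count, in which reads within both genes are dropped as ambiguous. The gain was larger in controls, from 6.70 to 10.8 CPM per kilobase on average, than in epileptic sgLacZ libraries, from 12.2 to 15.1. With the strand counts added the log2 fold change of Tsc2 was 0.47 (SE 0.15, adjusted p = 0.0474). The library kit keeps no strand, so the added counts can also hold reads of Pkd1 and are not a corrected level of Tsc2.

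The GATOR1 genes were not alike. Depdc5, which encodes the subunit that contacts the Rag GTPases, was at 19.7, 19.9, 21.7, 20.5 and 24.8 CPM in controls and from 21.7 to 52.2 in epileptic sgLacZ libraries with a median of 32.3. All of them but replicate 5 exceeded every control, and the log2 fold change was 0.67 (SE 0.19, adjusted p = 0.0415). Nprl2, the catalytic subunit, was at 40.6, 38.7, 44.4, 42.8 and 44.7 CPM in controls and from 31.1 to 46.5 in epileptic sgLacZ libraries, with a log2 fold change of -0.14 (SE 0.11) that did not pass (adjusted p = 0.369). Nprl3, its partner, was at 19.8, 14.6, 16.2, 15.7 and 17.4 CPM in controls and from 19.1 to 24.1 in epileptic sgLacZ libraries, 5 of which lay above every control. Its log2 fold change of 0.34 (SE 0.12) missed the threshold (adjusted p = 0.0597). Nprl3 overlaps Mpg, and with the counts of both strands added it had 83.8% more reads and a log2 fold change of 0.059 (SE 0.085, adjusted p = 0.639). Those added reads can likewise include reads of Mpg. In sgKcna1 libraries Depdc5 ran from 15.6 to 30.7 CPM, Nprl2 from 33.5 to 48.3 and Nprl3 from 15.1 to 20.6. The difference between GATOR1 genes in their response was not tested.

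On build GRCm38.p6 the genes are unlinked apart from pairs that share a chromosome. Mtor spans chr4:148448582-148557685, Tsc1 chr2:28640993-28691172, Tsc2 chr17:24595816-24632676 and Nprl2 chr9:107542177-107545706. Rptor, at chr11:119602905-119899591, lies on the same chromosome as Nprl3, at chr11:32231963-32267707, and Rheb, at chr5:24802823-24842361, on the same as Depdc5, at chr5:32863646-32994233. Besides Pkd1 and Mpg, annotated genes overlap Mtor (Angptl7, Gm24002 and Gm23318), Rptor (Rptoros), Depdc5 (Gm24003) and Nprl2 (Cyb561d2), and adding the strands gave these 4 at most 1.69% more reads. No annotated gene overlaps Rheb or Tsc1.

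The second comparison, of the libraries labelled sgKcna1 with epileptic sgLacZ, asks what changed in epileptic hippocampus with the guide to Kcna1. None of the 8 genes passed, and neither did any of the 17615 tested genes. Mtor had a log2 fold change of -0.57 (SE 0.21, adjusted p = 0.213), Rptor -0.58 (SE 0.20, adjusted p = 0.213), Tsc1 -0.52 (SE 0.20, adjusted p = 0.214), Tsc2 -0.63 (SE 0.22, adjusted p = 0.213) and Depdc5 -0.47 (SE 0.18, adjusted p = 0.220). Nprl3 was at -0.25 (SE 0.11), while Rheb was at 0.18 (SE 0.11) and Nprl2 at 0.18 (SE 0.11). At an unadjusted p under 0.05, 6 of the 8 genes were lower and none higher, against 10.5% of tested genes lower and 8.69% higher. DESeq2 called 143 genes and limma voom 12, with 0 of the 8 genes among either. With epileptic sgLacZ replicate 5 left out, 4 of the 8 genes passed as lower: Mtor, Rptor, Tsc2 and Depdc5, with adjusted p of 0.0451, 0.0433, 0.0421 and 0.0498, and 8.54% of all tested genes passed in that fit. With sgKcna1 replicate 12 left out the log2 fold change of Mtor was -0.45 and that of Rptor -0.47, and none of the 8 passed.

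**Figure D2:**
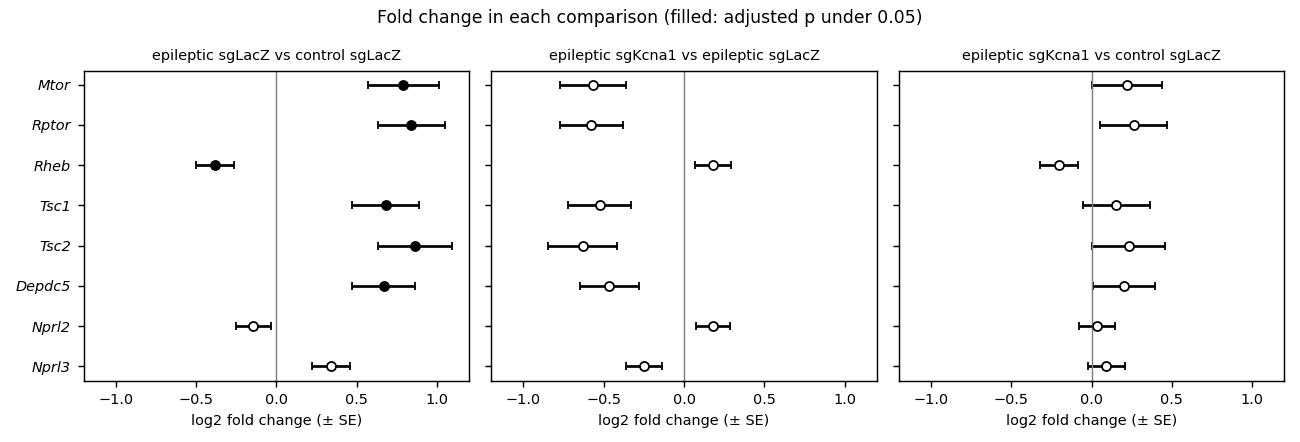
Log2 fold change of each of the 8 genes with its SE in the 3 comparisons, the first group over the second; filled points passed an adjusted p of 0.05. In epileptic sgLacZ over control Mtor is at 0.79 and Rheb at -0.38, both filled, and in the other comparisons every point is open.

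The third comparison set the libraries labelled sgKcna1 against controls. None of the 8 genes passed, with a smallest adjusted p of 0.766, and neither did any tested gene; at an unadjusted p under 0.05 there were 0 of the 8 and 6.77% of tested genes. DESeq2 called 39 tested genes and limma voom 71, with none of the 8 in either. Log2 fold changes were 0.22 (SE 0.22) for Mtor, 0.26 (SE 0.21) for Rptor, 0.15 (SE 0.21) for Tsc1, 0.23 (SE 0.23) for Tsc2 and 0.20 (SE 0.19) for Depdc5. Nprl2 was at 0.035 (SE 0.11) and Nprl3 at 0.093 (SE 0.12). All 8 estimates lay within 2 SE of 0, which does not show that the groups were alike. The 3 comparisons share libraries with each other, so their values are given side by side and were not related.

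The calls of the first comparison crossed the threshold with single libraries, while the fold changes kept their direction. With each of the 17 libraries left out in turn, the log2 fold change ran from 0.59 to 0.90 for Mtor, 0.64 to 0.94 for Rptor, 0.47 to 0.77 for Tsc1, 0.68 to 0.99 for Tsc2, 0.50 to 0.77 for Depdc5 and -0.47 to -0.30 for Rheb. None of the 8 genes passed when control replicate 13, 14, 15, 16 or 23 was left out, or when epileptic sgLacZ replicate 4, 7 or 9 was. Without control replicate 15, 2.90% of all tested genes passed, and without any other of these libraries 0 did. Without epileptic sgLacZ replicate 4, which had the highest Mtor, adjusted p was 0.0929 for Mtor and 0.0789 for Rptor. Without epileptic sgKcna1 replicate 3 or 10, which enter only through the fit's shared scaling, filter and estimate of spread, 3 genes passed, and 6.39% and 5.83% of all tested genes did. Without epileptic sgLacZ replicate 6, 4 genes passed, with 5.44% of all tested genes, and without sgKcna1 replicate 1, 2 or 11, 4 passed, with 8.70%, 8.55% and 8.67%. Without epileptic sgLacZ replicate 8, 6 genes passed, with 13.6% of all. Without epileptic sgLacZ replicate 5 or sgKcna1 replicate 12, 7 genes passed, with 31.3% and 27.1% of all. Sex was read from sex-linked genes because the labels give none. By these genes 2 of 5 control, 4 of 6 epileptic sgLacZ and 2 of 6 sgKcna1 libraries were female. A term for sex left 0 of the 8 called, and fewer of all tested genes passed in that fit too, as counted in the last section. Mtor was then at a log2 fold change of 0.77 and Rptor at 0.83, with adjusted p of 0.0551 and 0.0507.

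In epileptic sgLacZ libraries the levels moved with the share of unmapped reads. That share had a median of 23.1% in controls, 18.3% in epileptic sgLacZ and 22.3% in sgKcna1 libraries. Among the 6 epileptic sgLacZ libraries, Mtor, Rptor and Tsc1 fell in exactly the reverse order of the unmapped share and Rheb in the same order, and Rheb did so in the 5 controls too. The other 4 genes in epileptic sgLacZ, the other 7 in controls and all 8 in sgKcna1 libraries followed neither order exactly. Replicate 4 had both the least unmapped reads and the highest level of Mtor, Rptor, Tsc1, Tsc2 and Depdc5, and replicate 5 had the most unmapped reads of that group and the lowest level of each. In the sgKcna1 group, replicate 12 had the most unmapped reads and the lowest level of the same 5 genes, but Rheb, at 185 CPM there, was near the lowest of its group and not the highest. With the unmapped share as a covariate 1 of the 8 genes passed, Rptor, at a log2 fold change of 0.47 (SE 0.12, adjusted p = 0.0491). Fewer of all tested genes passed in that fit too, as counted in the last section. Under that covariate Mtor was at 0.39 (SE 0.13), Tsc2 at 0.49 (SE 0.15), Tsc1 at 0.36 (SE 0.15), Depdc5 at 0.35 (SE 0.13) and Rheb at -0.31 (SE 0.11). The part of RNA or library quality in the differences between groups was not tested beyond this covariate.

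**Figure D3:**
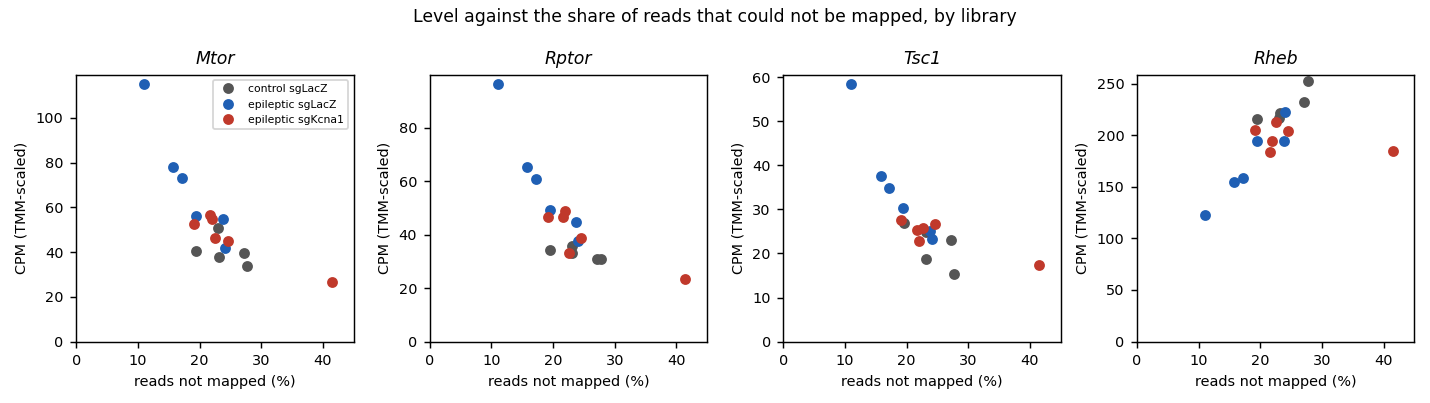
CPM of Mtor, Rptor, Tsc1 and Rheb in the 17 libraries (linear axes from 0) against unmapped reads as a percentage of all reads, with points coloured by group. The epileptic sgLacZ library with 11.0% unmapped reads has the highest Mtor, Rptor and Tsc1 and the lowest Rheb of all libraries, and the sgKcna1 library with 41.5% lies at the lower end of Mtor and Rptor.

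Fold change also moved with gene length. Of the 8 genes, 7 lie in the longest of 4 equal length classes of tested genes, with at least 5.46 kilobases of exon, and Nprl2 lies in the shortest. In epileptic sgLacZ against control, the median log2 fold change of all genes with a length was -0.28, 0.019, 0.14 and 0.20 from the shortest to the longest class. In the longest class 13.6% of genes were called higher and 1.57% lower, against 1.49% and 6.38% in the shortest. Nprl2, with 1.46 kilobases and a log2 fold change of -0.14, was close to the genes of its length, while Mtor, Rptor, Tsc1, Tsc2 and Depdc5 were above the median of their class and Rheb, with 5.54 kilobases, was below it. In the libraries labelled sgKcna1 against epileptic sgLacZ the trend ran the other way. The medians there were 0.16, -0.016, -0.087 and -0.13 from the shortest to the longest class. In the longest class 33.4% of genes had a positive log2 fold change in that comparison, against 69.2% in the shortest. The part of length in the differences of either comparison was not tested.

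**Figure D4:**
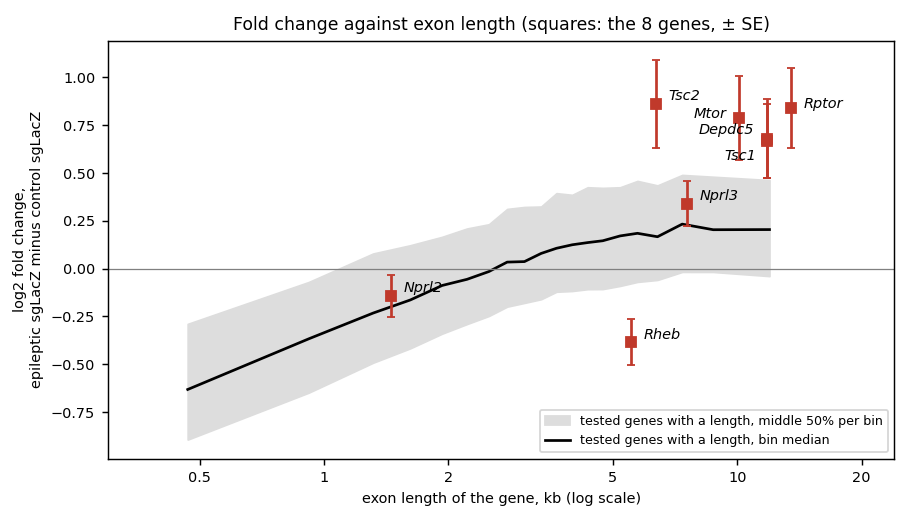
Log2 fold change of epileptic sgLacZ over control against exon length in kilobases (log axis). The line and the grey band are the median and the middle 50% of the tested genes with a length in 20 bins, and squares are the 8 genes with their SE; Tsc2, Rptor, Mtor, Tsc1 and Depdc5 lie above the band and Rheb below it.

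Across all 17 libraries the 5 genes that rose followed one another closely, with Pearson's r of 0.89 to 0.98 over their 10 pairs on the log2 CPM scale, and Rheb ran against each of them, at -0.86 to -0.81. With group means removed the values were 0.81 to 0.96 and -0.78 to -0.70. These points share libraries, and with them depth, unmapped share and cell make-up. The gene closest to Mtor and to Rptor among 9318 genes was Apc2 in both cases (r = 0.98). Apc2 had a log2 fold change of 0.90 (SE 0.26, adjusted p = 0.0407). It was picked for following these genes over the same libraries, so that value is not a separate result. For Rheb the closest gene was Yipf4 (r = 0.97), for Tsc1 Bicd2 (0.96), for Tsc2 Pitpnm2 (0.98) and for Depdc5 Endod1 (0.98). For Nprl2 it was Plekho1 (0.91) and for Nprl3 1110003O08Rik (0.87).

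Of a list of 65 other genes of the pathway, 64 were matched and tested, all but Kics2. In epileptic sgLacZ against control 4 of them were higher and 1 lower, and their median log2 fold change was 0.099. These 5 of 64 genes are a share near the 11.0% of all tested genes. With epileptic sgLacZ replicate 5 left out 27 passed (31.3% of all tested genes did), with sgKcna1 replicate 12 left out 25 (27.1%) and with epileptic sgLacZ replicate 8 left out 10 (13.6%). Without epileptic sgLacZ replicate 6, 2 passed (5.44% of all), without control replicate 15, 1 (2.90%), and without sgKcna1 replicate 2, 3, 10 or 11, 3 each (5.83% to 8.67%). None passed without control replicate 13, 14, 16 or 23 or epileptic sgLacZ replicate 4, 7 or 9. The fit without sgKcna1 replicate 1 is not listed here, and it lay within the range of 0 to 27 over all 17 fits. Of 7 genes upstream, in PI3K and Akt signalling, which relays growth factor signals to the TSC complex, 2 were higher and none lower. Akt1, a kinase that inhibits the TSC complex, was at 123 ± 11.6 CPM in controls (SD, n = 5) and 179 ± 30.0 in epileptic sgLacZ libraries (SD, n = 6). Its log2 fold change was 0.54 (SE 0.14, adjusted p = 0.0355), and that of Pik3r2, a regulatory subunit of PI3K, was 0.52 (SE 0.15, adjusted p = 0.0398).

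Among 12 genes of the Rag GTPases, their Ragulator anchor and folliculin, which bring mTORC1 to the lysosome, 2 were higher and 1 lower. Flcn, whose product acts on the Rag GTPases, was at 31.5 ± 3.80 CPM in controls and 44.6 ± 6.91 in epileptic sgLacZ libraries, a log2 fold change of 0.50 (SE 0.13, adjusted p = 0.0347). Rragd, a Rag GTPase gene, was at 0.41 (SE 0.12, adjusted p = 0.0445), and Lamtor1, the Ragulator subunit that holds it on the membrane, at -0.35 (SE 0.11, adjusted p = 0.0445).

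In the other groups of the list no gene passed, and the gene with the smallest p in each is given. Of the 13 substrates and effectors of mTORC1 it was Eif4ebp2, a repressor of translation, at 0.58 (adjusted p = 0.0520), and of the 7 amino acid sensors Sesn2, a leucine-binding regulator of GATOR2, at 0.69 (adjusted p = 0.0532). For the 5 GATOR2 genes it was Wdr59, at 0.47 (adjusted p = 0.0539), and for the 3 KICSTOR genes tested Itfg2, at 0.53 (adjusted p = 0.0554), which was also above every control in all 6 epileptic libraries. Rhebl1, a relative of Rheb, was at -0.59 (adjusted p = 0.0612). Prkag1, a subunit of the energy sensor AMPK, was at -0.82 (adjusted p = 0.0639) and Mlst8, a subunit of both mTOR complexes, at 0.38 (adjusted p = 0.0692), but adding the strand counts gave 294% and 254% more reads, so the levels of both are uncertain. Prr5, a subunit of mTORC2, was at 0.51 (adjusted p = 0.126). Eif4e, the cap-binding translation factor, and Fnip1, a folliculin partner, lay below every control in all 6 epileptic libraries without passing, at -0.18 (adjusted p = 0.108) and -0.34 (adjusted p = 0.177). Groups were separate in this way for 1 higher and 2 lower of the 64 genes, shares near the 2.00% and 2.40% of all tested genes. In both comparisons of the libraries labelled sgKcna1, 0 of the 64 genes and 0 of all tested genes passed. At an unadjusted p under 0.05, 4 of the 64 were higher and 7 lower against epileptic sgLacZ. Among all tested genes 8.69% were higher and 10.5% lower there. Against controls 0 were higher and 1 lower at that limit, where 6.77% of all tested genes lay under it in either direction.

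**Figure D5:**
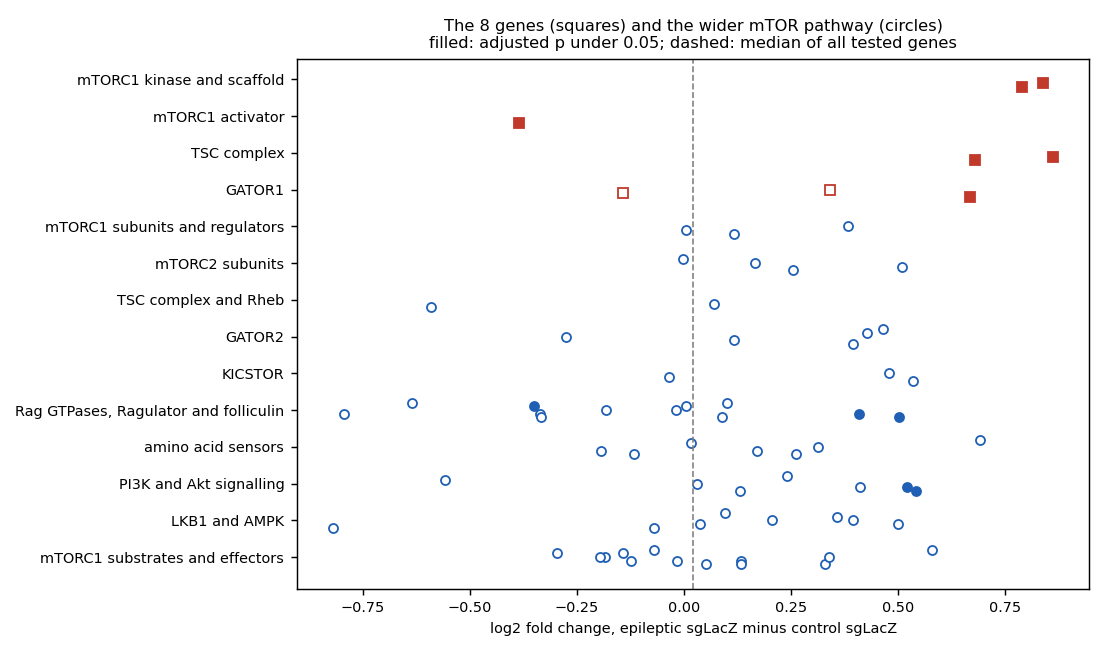
Log2 fold change of epileptic sgLacZ over control for the 8 genes (squares) and 64 other genes of the mTOR pathway (circles), 1 line for each role, with filled symbols for an adjusted p under 0.05 and a dashed line at 0.020, the median of all tested genes. Filled circles are 2 genes of PI3K and Akt signalling, with Akt1 at 0.54, and 3 genes around the Rag GTPases.

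Markers of cell types moved in part with the same comparison. Of 5 astrocyte markers 2 were called higher in epileptic sgLacZ libraries, and their summed level ran from 2106 to 2823 CPM there against 1795 to 2166 in controls. Of the 5 neuronal markers 1 was called higher, Slc17a7, the vesicular glutamate transporter of excitatory neurons, at a log2 fold change of 0.77 (adjusted p = 0.0366). The other 4 did not pass: Snap25 was at -0.26 (adjusted p = 0.0609), with all 6 epileptic libraries below every control, Rbfox3 at -0.31 (adjusted p = 0.0952), Syt1 at -0.024 and Camk2a at 0.069. The summed level of the 5 ran from 6353 to 8290 CPM against 6720 to 7300. Of the 5 microglial markers 1 was called higher, Csf1r, at 0.38 (adjusted p = 0.0356). Tmem119 was at 0.25, and Aif1 was at -0.32, Cx3cr1 at -0.27 and C1qa at -0.12. Adding the strand counts gave 36.6% more reads for Csf1r and 27.5% more for Aldh1l1, 1 of the 2 called astrocyte markers. The levels of both are therefore uncertain. Of 3 CA field markers 1 was higher and 1 lower, and of 3 ependymal markers 1 was lower. The summed oligodendrocyte markers ran from 4570 to 6776 CPM in epileptic sgLacZ, 6132 to 8835 in control and 2542 to 10040 in sgKcna1 libraries, with replicate 12 the highest. None of the dentate granule cell, interneuron, oligodendrocyte, endothelial, choroid plexus and neighbouring tissue markers was called. Of the 5 interneuron markers, Pvalb was at -1.01 (adjusted p = 0.0524) and Sst at -0.80 (adjusted p = 0.0505). In each, 5 of 6 epileptic sgLacZ libraries lay below every control. Gad1 was at -0.12, Gad2 at 0.27 and Slc32a1 at 0.14. The part of cell make-up in the levels of the 8 genes was not tested.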

How the data were processed

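The authors aligned reads to mm10 with STAR 2.7 and deposited raw counts of reads per Ensembl gene, 1 list per library, with columns for either strand, forward and reverse strand. The unstranded counts were used; forward and reverse totals differed by at most 1.01-fold, and the labels name a library kit that keeps no strand. Reads unmapped (11.0% to 41.5%), multimapping (3.19% to 5.31%), outside genes (2.65% to 4.87%) or ambiguous (4.08% to 5.77%) stayed out of library sizes.

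Genes passing edgeR's filterByExpr were fitted together over the 17 libraries, 3 groups with 1 shared estimate of spread (edgeR 4.0.16, R 4.3.3; TMM; quasi-likelihood test; Benjamini-Hochberg over 17615 genes). Groups and replicate numbers came from the labels. The steps were tested on simulated data. Replicates differed beyond counting noise, and none was a duplicate. Alternatives were DESeq2 1.42.0 (also used by the authors), limma 3.58.1 voom, other scalings, no filter, added strand counts, covariates for unmapped share and sex, fits of 2 groups only and each library left out. Counting error alone sets the limits given for 3 reads.

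Some genes of the pathway list are not reported here and stayed out of its counts. Genes and lists were chosen with earlier results of these data known. Named genes were the 8, Kcna1, every pathway gene past the threshold (if at most 12), the gene with the smallest p in each role and the gene closest to each of the 8 over 17 libraries among those of at least 5 CPM and at most 5% added reads. Fnip1, Eif4e and the single neuronal, interneuron, microglial and astrocyte markers were named after their values were seen. Symbols, promoters and positions came from RefSeq (GRCm38.p6); exon lengths came from GENCODE on another build, for 89.7% of tested genes.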

Additional observations from a re-analysis of the deposited data

Results flagged for a closer look

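Kcna1 in epileptic sgKcna1 replicate 12 stood apart from the other libraries of its group, at 133 CPM against a next highest value of 29.5. It was the only value that stood out among 27 combinations of the 8 genes or Kcna1 with a group, and chance alone sets apart about 1 group in 20. The same library had the highest share of unmapped reads (41.5%) and the highest summed oligodendrocyte, microglial and endothelial markers.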

How the results depend on the processing

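Between epileptic sgLacZ and control libraries, 6 of the 8 genes passed; 7 did in DESeq2 and in limma voom, 6 with DESeq2 size factors, library totals or strand counts added, 5 with no filter, 4 with the 2 groups alone, 1 with the unmapped share as a covariate, 0 with sex as a covariate, and 0 to 7 with each library left out in turn. Of the 64 other pathway genes 5 passed; 10 did with library totals only, 18 in DESeq2, 32 in limma voom, 9 with strand counts added, 3 with no filter, 13 with the 2 groups fitted alone, 2 with sex and 0 with the unmapped share as a covariate, and 0 to 27 with a library left out. Of all 17615 tested genes 1940 (11.0%) passed in the main fit. Over all genes 428 passed with the unmapped share, 516 with sex, 3686 in DESeq2, 7301 in limma voom and 3045 with the 2 groups alone. For DESeq2 size factors, library totals, added strand counts and no filter, no count over all tested genes is given here. The counts of the 8 genes and of the pathway list under those settings therefore have no share to be read against. Library totals moved the median of all genes to 0.093. Between the 2 epileptic groups 0 passed in each list, and with a library left out 0 to 4 of the 8 genes and 0 to 3 of the others; against controls, 0 and 0 to 0. The 1 change of direction was Nprl3 in sgKcna1 against control libraries, at -0.049 with strand counts added. Of the log2 fold changes of the 8 genes in the 3 comparisons, 15 dropped below and 3 rose above the threshold over the 9 other settings, and 62 and 6 with a library left out; 197 and 340 did neither. Except where stated, the cause was not tested. Depth limits Depdc5 most, with 167 reads in 1 library. No paired analysis was possible because the groups share no replicate numbers.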
